A study of Saccharomyces cerevisiae with 16 samples.

Results

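Petite yeast were compared with grande yeast grown without MCHM in YM, a minimal medium, by RNA sequencing of 2 libraries of each. These 4 libraries were taken from the 16 of the study by their medium, their cell type and the absence of MCHM, and all genes were considered. Both strains were S96 (MATa lys5), a haploid in the S288c background, and both received lysine in YM because of the lys5 mutation. Petite yeast had been made from S96 by a 6-h incubation with ethidium bromide, and grande yeast carried their mitochondrial genome. The study also grew both strains in YPD, a rich medium, and with 0.055% (v:v) MCHM, the coal-cleaning solvent it was about. Each mid-log culture was diluted and divided between medium with and without MCHM, then grown on for 2.5 h according to the labels and 90 min according to the methods, so the untreated libraries used here are the undosed part of divided cultures. The columns of the table carry culture numbers, 5 and 13 for grande and 6 and 14 for petite yeast, of which 5 and 6 belong to a lower series and 13 and 14 to a higher one. Values of each library are given below in this order, grande cultures 5 and 13 and then petite cultures 6 and 14. Whether the petite cultures came from 1 isolate is not given in the sources used here.

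Petite yeast have lost all or most of their mitochondrial DNA and with it subunits of the respiratory chain and of the ATP synthase, so they grow by fermentation and not on glycerol. Loss of respiration limits the citrate cycle, which supplies 2-oxoglutarate for glutamate synthesis, and is known for the retrograde response, in which Rtg1 and Rtg3 activate nuclear genes such as CIT2. In a minimal medium, cells must make their amino acids and nucleotides and rely on regulated uptake of nitrogen, phosphate, sulfate and metals, whereas YPD supplies most of these.

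The 4 libraries held 2854748 and 3499724 counts in grande yeast and 3631001 and 4012646 in petite yeast, and their TMM scaling factors were 0.903, 0.867, 1.07 and 1.05. Levels are given as CPM, counts per 1000000 of these scaled totals, and depend on transcript length, so they are compared between libraries and not between genes. A count of 0 allows a share of up to 3 counts, which was 7.48e-05% to 0.000105% of a library and covers counting error only. The label of petite yeast could not be checked in this medium, because COX1, COX2, COX3, COB, ATP6, ATP8, OLI1 and VAR1, the mitochondrial genes that petite yeast lack, had 0 counts in all 4 libraries. Over the 28 identifiers of the mitochondrial genome, the grande libraries held 4 counts each and the petite libraries 0. All 6 genes that mark mating type a were well above background in each library, with MFA2, a precursor of a-factor, at 984 and 983 CPM in grande and 89.2 and 189 CPM in petite yeast. Of the alpha-specific genes, the alpha-factor gene MF(ALPHA)1 had 7 and 19 counts in grande and 0 and 2 counts in petite yeast, while the agglutinin gene SAG1 was present at 73.4 and 83.4 CPM in grande and 71.7 and 74.4 CPM in petite yeast. LYS5, the gene mutated in S96, was still transcribed, at 32.6 and 35.3 CPM in grande and 32.1 and 56.8 CPM in petite yeast.

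Of 5856 genes tested, 624 (10.7%) passed an adjusted p under 0.05 and changed at least 2-fold, which is what "called" means below. The test was the quasi-likelihood test of edgeR, adjusted over all genes by the method of Benjamini and Hochberg. In petite yeast, 326 of them (5.57% of those tested) were higher and 298 (5.09%) lower, and 114 rose and 58 fell at least 4-fold. Counts of called members of the lists below are to be read beside these shares. All 624 had groups that did not overlap, a property shared by 3294 genes (56.2%). The median log2 fold change, petite against grande, was 0.07 over all genes tested, and it became 0.33 when the counts were scaled by library size alone. That scaling left no called gene with a turned direction but changed the split of the calls to 521 higher and 174 lower. The spread was estimated from all 16 libraries, since 2 libraries per group say little about it, and within the 4 libraries alone 8 genes passed: DAL4, DAL5, DIP5, PTR2, PUT1, BAT2 and SHH4, which rose, and HTB2, which fell. Without 1 library, 647 genes were called without culture 5, 98 without culture 13, 286 without culture 6 and 352 without culture 14. Of the 624 genes, 88 kept their call in each of these 4 fits. The labels describe the 2 libraries of a group as replicated cultures. The p-values rest on the pooled spread of all 16 libraries, which are not all independent, since treated and untreated ones came from the same divided cultures. Deviations from the group means within a series correlated at 0.574 between petite and grande yeast in YM. A fit with a term for the series, the block by series, called 869 genes, 617 of them among the 624.

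**Figure D1:**
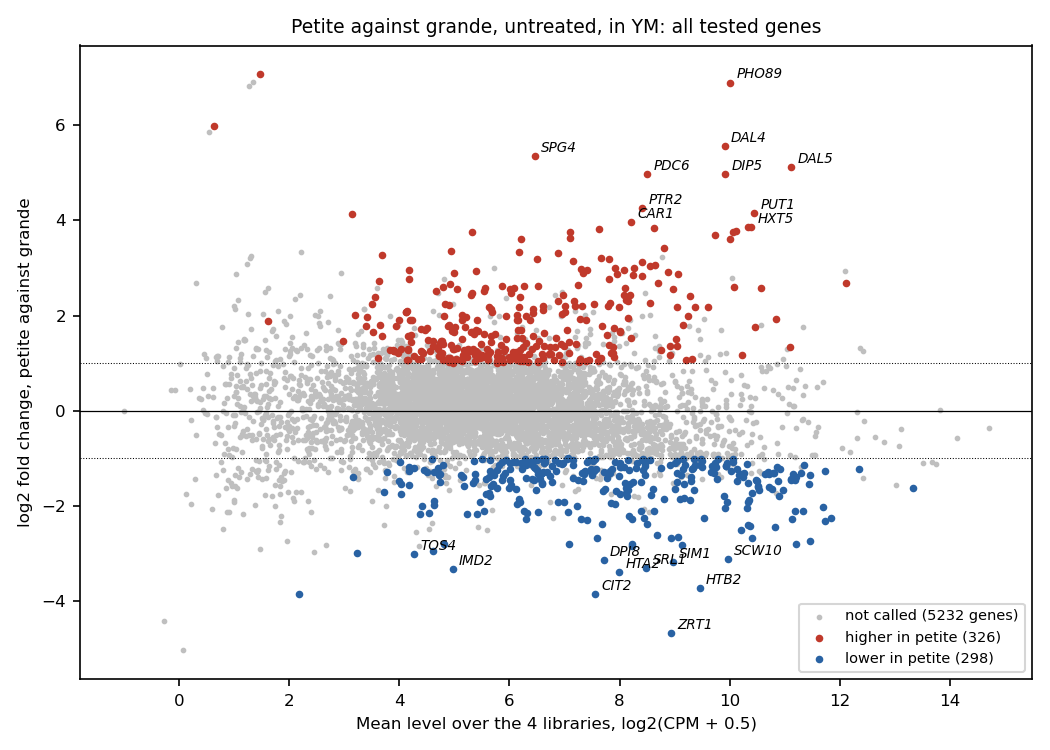
Each point is 1 of the 5856 genes tested, with its mean level over the 4 libraries on the horizontal axis, log2(CPM + 0.5), and its log2 fold change, petite against grande, on the vertical axis. The 326 red genes were called higher and the 298 blue ones lower in petite yeast, dotted lines mark 2-fold, and the 20 largest called changes at a mean of at least 50 counts are named, from ZRT1 at -4.68 to PHO89 at 6.90.

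Genes for the use of poor nitrogen sources were among the largest rises. Yeast take up and break down allantoin, urea, proline, arginine and GABA when better sources such as glutamine run short, and the GATA factors Gln3 and Gat1 then act through the letters GATAAG. Of 12 genes for allantoin and urea use 8 rose and 0 fell, with a median log2 fold change of 2.12 beside 0.07 for all genes. Of 10 genes for proline, arginine and GABA use 6 rose and 0 fell, with a median of 2.75.

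The promoters of DAL4, DAL5, PUT1 and DUR3, 4 of the genes with the largest rises in these lists, are shown because they carry those letters. Each sequence is the 300 bases that end 100 bases before the start codon, read 5′ to 3′ on the gene's strand from the RefSeq R64 assembly, the build named in the submitters' processing notes. GATAAG and its reverse complement CTTATC are in capitals. The windows are chrIX:408068-408367 on the plus strand for DAL4, chrX:719266-719565 on the plus strand for DAL5, chrXII:424786-425085 on the plus strand for PUT1 and chrVIII:74345-74644 on the minus strand for DUR3.
DAL4: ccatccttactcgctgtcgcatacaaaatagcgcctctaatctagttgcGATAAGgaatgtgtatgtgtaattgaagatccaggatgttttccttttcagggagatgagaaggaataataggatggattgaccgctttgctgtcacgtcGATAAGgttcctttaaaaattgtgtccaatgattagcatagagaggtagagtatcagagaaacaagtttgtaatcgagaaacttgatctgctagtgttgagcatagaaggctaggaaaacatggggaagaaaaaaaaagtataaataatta
DAL5: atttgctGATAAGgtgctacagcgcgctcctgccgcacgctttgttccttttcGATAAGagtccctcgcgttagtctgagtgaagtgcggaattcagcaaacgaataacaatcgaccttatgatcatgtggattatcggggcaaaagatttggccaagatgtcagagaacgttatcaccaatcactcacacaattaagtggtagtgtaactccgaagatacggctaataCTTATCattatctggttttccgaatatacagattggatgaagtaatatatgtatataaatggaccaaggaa
PUT1: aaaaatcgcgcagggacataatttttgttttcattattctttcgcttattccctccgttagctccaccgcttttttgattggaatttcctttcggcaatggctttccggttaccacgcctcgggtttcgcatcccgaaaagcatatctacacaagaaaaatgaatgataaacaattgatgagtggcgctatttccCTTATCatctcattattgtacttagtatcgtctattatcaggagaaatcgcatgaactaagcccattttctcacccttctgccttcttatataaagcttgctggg
DUR3: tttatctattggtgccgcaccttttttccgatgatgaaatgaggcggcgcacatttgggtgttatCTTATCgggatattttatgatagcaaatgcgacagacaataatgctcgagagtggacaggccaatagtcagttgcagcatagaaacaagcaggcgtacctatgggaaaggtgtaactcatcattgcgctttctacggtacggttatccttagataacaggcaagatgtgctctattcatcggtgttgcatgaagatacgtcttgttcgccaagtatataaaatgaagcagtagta
The letters occurred on either strand in 11 of the 12 windows of the allantoin and urea list, including all 8 that rose, in 2 of the 6 genes of the other list that rose, and in 13.99% of 6005 windows of the same length before all genes. Over the 324 called higher genes with a window the share was 24.1%, and over the 297 called lower genes 11.4%. Of the 53 genes of the 4 nitrogen lists with a window, the 20 that rose held the letters in 65.00% and the 33 not called in 42.4%. These pooled shares depend on the lists. Genes that rose held the letters in 8 of 8 cases for allantoin and urea and 2 of 6 for proline, arginine and GABA. The cases were 3 of 4 for ammonium and glutamate and 0 of 3 for amino acid permeases. The window before DIP5, described below, held none, and a match is a description of the sequence, not a sign of binding.

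DAL4, the allantoin permease, had 38.04 and 41.5 CPM in grande and 1335 and 2428 CPM in petite yeast. Its log2 fold change was 5.56 ± 0.63 (standard error), 47.2-fold, and both petite libraries were far above both grande libraries. DAL5, which imports allantoate, had 84.2 and 162 CPM in grande and 4190.1 and 4423 CPM in petite yeast, a log2 fold change of 5.13 ± 0.58. DUR3, the urea permease, had 79.2 and 219.9 CPM in grande and 1379 and 2740.5 CPM in petite yeast, a log2 fold change of 3.78 ± 0.51. The higher series was the higher of each pair for all 3 permeases, in both strains. DAL80, a GATA repressor of the same genes, rose as well, with 15.9 and 54.4 CPM in grande and 192 and 363 CPM in petite yeast, a log2 fold change of 2.97 ± 0.59. The enzymes of the pathway rose with log2 fold changes of 2.30 ± 0.48 for the allantoinase DAL1, 2.24 ± 0.48 for the allantoicase DAL2 and 1.99 ± 0.48 for the urea amidolyase DUR1,2. DCG1, whose product is little studied, rose by 1.97 ± 0.45.

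PUT1, the proline oxidase of mitochondria, had 184 and 111 CPM in grande and 2743 and 2536 CPM in petite yeast, a log2 fold change of 4.16 ± 0.40. PUT4, the proline permease, had 238 and 93.6 CPM in grande and 2187 and 2636 CPM in petite yeast, a log2 fold change of 3.86 ± 0.59. CAR1, arginase, had 33.8 and 36.9 CPM in grande and 266 and 840.0 CPM in petite yeast, a log2 fold change of 3.97 ± 0.63. CAR1 was level in the grande libraries, and petite culture 14 was well above petite culture 6. UGA4, the GABA permease, had 76.8 and 75.5 CPM in grande and 541 and 1095 CPM in petite yeast, a log2 fold change of 3.42 ± 0.56, and PUT2 and CAR2, the next enzymes of proline and arginine breakdown, rose by 2.88 ± 0.32 and 2.63 ± 0.64. The adjusted p-values of the 14 called genes of both lists ran from 0.000706 for PUT1 to 0.0200 for CAR2 in edgeR's quasi-likelihood test. Without 1 library, members of the allantoin and urea list called were 4 without culture 5, 4 without culture 13, 9 without culture 6 and 3 without culture 14, and of the proline, arginine and GABA list 6 without culture 5, 4 without culture 13, 7 without culture 6 and 5 without culture 14. DAL4, DAL5, DUR3, PUT1, PUT2, PUT4 and CAR1 kept their calls in all 4 fits.

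Permeases and enzymes of nitrogen assimilation rose with them in smaller numbers. DIP5, the permease of glutamate and aspartate, had 72.6 and 46.2 CPM in grande and 2274 and 1471 CPM in petite yeast, a log2 fold change of 4.98 ± 0.68. Of 20 amino acid permeases 3 rose, DIP5, PUT4 and the branched-chain amino acid permease BAP2 (2.96 ± 0.65), and the list's median was 0.42. The general amino acid permease GAP1 was not called, at 1731 and 4265 CPM in grande and 6140.1 and 8861 CPM in petite yeast (log2 fold change 1.32 ± 0.68, adjusted p = 0.212 in edgeR's quasi-likelihood test). PTR2, which imports di- and tripeptides, had 43.1 and 24.7 CPM in grande and 653 and 638 CPM in petite yeast, a log2 fold change of 4.25 ± 0.63. OPT1, a transporter of oligopeptides and glutathione that was chosen after its values were seen, had 68.7 and 68.2 CPM in grande and 617 and 473 CPM in petite yeast, a log2 fold change of 2.99 ± 0.34. Both groups of OPT1 were tight, and its call and those of PTR2 and DIP5 held without each library.

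Of 12 genes for ammonium and glutamate 4 rose: GDH2, the glutamate dehydrogenase that releases ammonium, by 2.69 ± 0.45, the glutamate synthase GLT1 by 1.76 ± 0.30, the glutamate dehydrogenase GDH3 by 1.34 ± 0.30 and the ammonium permease MEP1 by 1.29 ± 0.27. GLT1 had 586 and 701 CPM in grande and 1827 and 2531 CPM in petite yeast. In fits without 1 library, members of this list called were 4 without culture 5, 1 without culture 13, 5 without culture 6 and 2 without culture 14, and GLT1 alone kept its call in all 4. BAT2, the cytosolic branched-chain aminotransferase, had 60.5 and 42.9 CPM in grande and 695 and 783 CPM in petite yeast, a log2 fold change of 3.84 ± 0.41 with an adjusted p of 0.000981 in edgeR's quasi-likelihood test. Of the aromatic amino acid genes, the aminotransferase ARO9 rose by 2.89 ± 0.63 and the synthase ARO3 by 1.08 ± 0.31, whereas the decarboxylase ARO10, which acts after ARO9 in breakdown, fell from 29.5 and 36.9 to 4.37 and 10.2 CPM. ATG1, the kinase that starts autophagy, had 23.7 and 19.5 CPM in grande and 148 and 279 CPM in petite yeast, a log2 fold change of 3.31 ± 0.43, and its call held without each library.

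**Figure D2:**
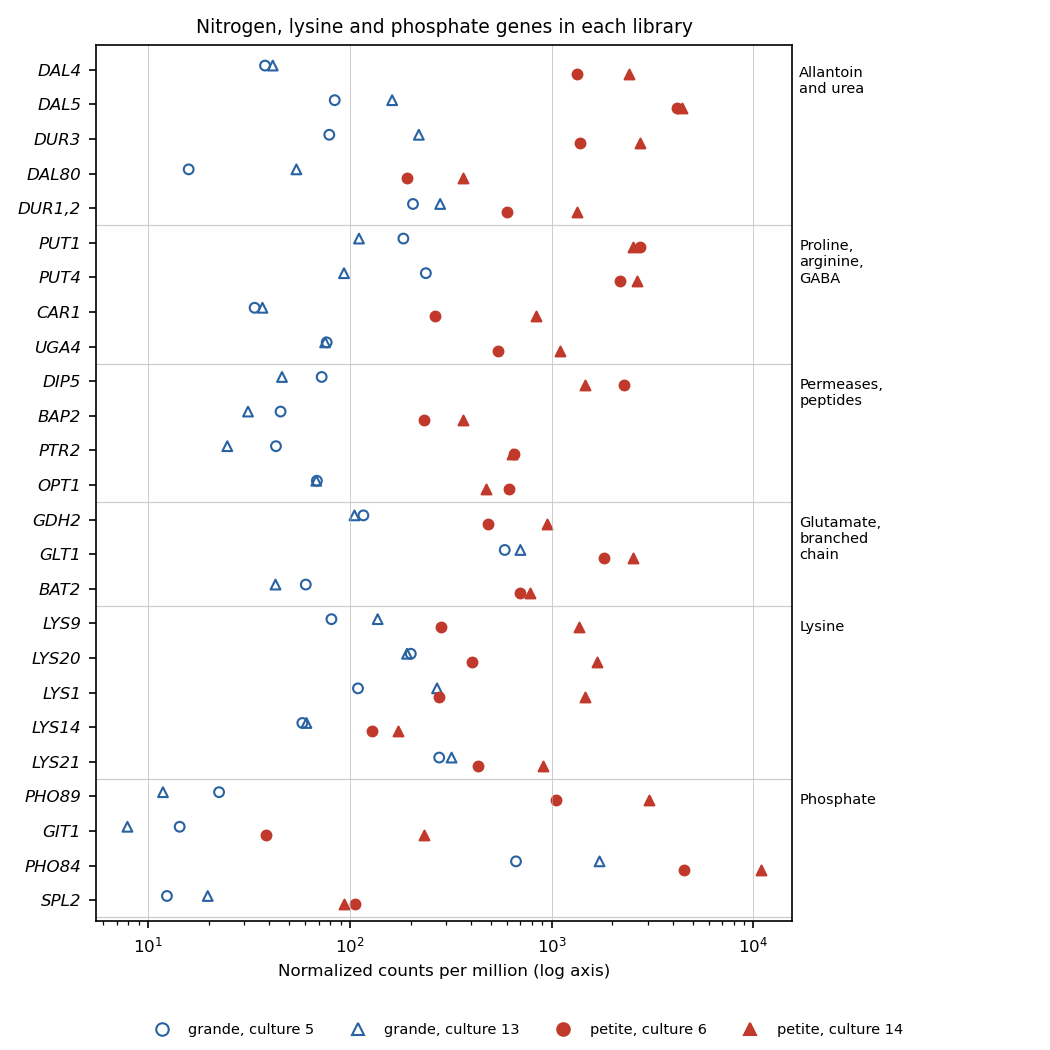
Each symbol is the level of 1 gene in 1 library, in normalized CPM on a log axis, for genes of nitrogen use, lysine synthesis and phosphate uptake. Open blue symbols are grande and filled red symbols petite yeast, circles the lower and triangles the higher series; the petite libraries lie to the right of the grande libraries for every gene shown, by the most for PHO89 and by little for LYS1 in petite culture 6 (276 CPM) against grande culture 13 (271 CPM).

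Part of the lysine biosynthesis pathway rose, in a medium that supplied lysine to both strains. Of the 9 genes 5 rose, LYS9, LYS20, LYS1, LYS14 and LYS21, and the median log2 fold change was 1.17. LYS9, saccharopine reductase, had 81.1 and 137 CPM in grande and 283 and 1372 CPM in petite yeast, a log2 fold change of 2.92 ± 0.61. LYS20, a homocitrate synthase, had 201 and 192 CPM in grande and 405 and 1688 CPM in petite yeast, a log2 fold change of 2.41 ± 0.54. Petite culture 14 was above petite culture 6 by several fold in both genes, and culture 6 exceeded the grande libraries by much less. LYS1, saccharopine dehydrogenase, rose by 2.19 ± 0.63, the activator LYS14 by 1.35 ± 0.25 and the homocitrate synthase LYS21 by 1.17 ± 0.32, with adjusted p-values of the 5 genes from 0.00796 to 0.0385 in edgeR's quasi-likelihood test. The numbers called were 1 without culture 5, 0 without culture 13, 6 without culture 6 and 1 without culture 14, and LYS14 was the one gene of the 5 still called without culture 5 or 14.

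Other amino acid pathways had fewer calls. Arginine biosynthesis had 0 of 10 genes called by edgeR, with 4 past 2-fold at p under 0.05 before adjustment and 1 called by DESeq2, at a median of 0.94, and its genes summed to 4136 and 8575 CPM in grande and 6539.9 and 19702 CPM in petite yeast. ARG1, argininosuccinate synthetase, had 737 and 1691 CPM in grande and 1362 and 4625 CPM in petite yeast, a log2 fold change of 1.30 ± 0.52 with an adjusted p of 0.115 in edgeR's quasi-likelihood test. Without petite culture 6, ARG1 passed, with a log2 fold change of 1.92 and an adjusted p of 0.0423 in that fit, and 5 genes of the list were called. Histidine biosynthesis had 0 of 7 called by either tool, and in the list for leucine, isoleucine and valine BAT2 and LEU4, an isopropylmalate synthase that rose by 1.34 ± 0.40, were called of 13. ASN1, an asparagine synthetase chosen after its values were seen, had 243 and 626 CPM in grande and 1063 and 4138 CPM in petite yeast, a log2 fold change of 2.58 ± 0.61, with a call that was lost without culture 5, 13 or 14.

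Sulfur genes changed in both directions. Of 24 genes 3 rose and 4 fell, with a median of -0.08 that became 0.19 when scaled by library size alone, -0.59 without culture 5 and 0.36 without culture 13. SUL1, the sulfate permease, had 249 and 365 CPM in grande and 1752 and 1972 CPM in petite yeast, a log2 fold change of 2.60 ± 0.54, and STR3 and STR2, which exchange cysteine and homocysteine, rose by 3.01 ± 0.66 and 1.53 ± 0.34. SAM2, an S-adenosylmethionine synthetase, had 1439.9 and 2559 CPM in grande and 399 and 303 CPM in petite yeast, a log2 fold change of -2.51 ± 0.40. SAH1, which breaks down S-adenosylhomocysteine, had 2699 and 4702 CPM in grande and 733 and 799.8 CPM in petite yeast, a log2 fold change of -2.27 ± 0.36. SAM1, nearly identical to SAM2 in its coding sequence, fell by 1.79, so the division of reads between the pair is uncertain, and MET3, ATP sulfurylase, fell by 1.35 on the log2 scale. SAM2 and SAH1 kept their calls in all 4 fits, in which members called were 5 without culture 5, 2 without culture 13, 5 without culture 6 and 4 without culture 14.

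Genes for phosphate uptake and storage rose, led by the largest called change of the comparison at a mean of at least 50 counts. PHO89, a sodium and phosphate symporter, had 22.5 and 11.9 CPM in grande and 1050.3 and 3037 CPM in petite yeast, a log2 fold change of 6.90 ± 0.88 with an adjusted p of 0.00173 in edgeR's quasi-likelihood test. Of the 28 genes of the list 9 rose and 0 fell, with a median of 0.85. PHO84, the high-affinity phosphate permease, had 666 and 1729 CPM in grande and 4517 and 10864 CPM in petite yeast, a log2 fold change of 2.68 ± 0.67; it overlaps a noncoding gene, YNCM0001W, whose reads the unstranded counts cannot separate. GIT1, the permease of glycerophosphoinositol, had 14.4 and 7.91 CPM in grande and 38.3 and 232 CPM in petite yeast, a log2 fold change of 3.61 ± 0.68. SPL2, an inhibitor of low-affinity phosphate uptake, had 12.4 and 19.8 CPM in grande and 106 and 93.6 CPM in petite yeast, a log2 fold change of 2.63 ± 0.47. The higher series held the higher petite value for PHO89, PHO84 and GIT1 and the lower one for SPL2. PHM6, PHO81, DDP1, GDE1 and KCS1 rose by 1.05 to 1.66 on the log2 scale, among them PHO81, the inhibitor of the Pho85 kinase. The acid phosphatase PHO5, a usual reporter of phosphate starvation, was not called, at 44.6 and 117 CPM in grande and 41.1 and 129.7 CPM in petite yeast. Without 1 library, members called were 3 without culture 5, 2 without culture 13, 5 without culture 6 and 6 without culture 14, and PHO89 and SPL2 were called in every one of these fits.

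The promoters of PHO89 and SPL2 are shown because they carry CACGTG, the letters that Pho4 and Cbf1 bind. The letters are in capitals and read the same on both strands. The windows, defined as above, are chrII:798623-798922 on the minus strand for PHO89 and chrVIII:375201-375500 on the minus strand for SPL2.
PHO89: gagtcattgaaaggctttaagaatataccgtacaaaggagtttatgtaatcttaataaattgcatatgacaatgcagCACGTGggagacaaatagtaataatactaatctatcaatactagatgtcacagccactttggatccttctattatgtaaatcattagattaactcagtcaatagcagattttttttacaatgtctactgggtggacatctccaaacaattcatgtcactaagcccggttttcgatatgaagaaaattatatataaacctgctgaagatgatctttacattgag
SPL2: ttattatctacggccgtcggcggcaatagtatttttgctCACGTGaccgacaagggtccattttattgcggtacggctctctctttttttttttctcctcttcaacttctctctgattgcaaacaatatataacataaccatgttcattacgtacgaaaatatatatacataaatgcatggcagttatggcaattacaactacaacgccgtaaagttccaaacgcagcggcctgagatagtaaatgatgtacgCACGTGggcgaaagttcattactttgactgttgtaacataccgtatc
Those letters occurred in 16 of the 28 windows of the phosphate list (57.1%), in 5 of the 9 genes that rose (55.6%) and in 4.56% of all 6005 windows. The windows before GIT1 and PHO84, which rose by more than SPL2, held none. The letters CACGTG can share bases with GTCAC, which is searched below.

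Some iron genes rose and some zinc genes fell. Of 28 iron uptake genes 4 rose: FIT3 and FIT2, mannoproteins of the wall that retain siderophore iron, by 3.22 ± 0.98 and 2.62 ± 0.73, the siderophore transporter SIT1 by 2.58 ± 0.71 and TIS11, which degrades messages of iron-using proteins, by 1.74 ± 0.50. FIT3 had 34.5 and 43.5 CPM in grande and 153 and 573 CPM in petite yeast. None of the 4 kept its call in all 4 fits, in which members called were 0 without culture 5, 0 without culture 13, 2 without culture 6 and 0 without culture 14. The same genes had log2 fold changes in YPD of 3.45 for FIT3, 2.53 for FIT2, 1.30 for SIT1 and 1.93 for TIS11, none of which passed there.

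Of 15 zinc genes 5 fell and 0 rose. ZRT1, the high-affinity zinc transporter, had 86.5 and 1784 CPM in grande and 26.7 and 46.3 CPM in petite yeast, a log2 fold change of -4.68 ± 1.09 with an adjusted p of 0.0166 in edgeR's quasi-likelihood test. This value rested on grande culture 13: without it the log2 fold change was -1.29 (adjusted p = 0.297 in edgeR's quasi-likelihood test), and without culture 5 it was -5.72. ZRT2, the low-affinity transporter, was steadier, with 364 and 587 CPM in grande and 113 and 92.2 CPM in petite yeast, a log2 fold change of -2.21 ± 0.34 that kept its call without each library. ADH4, an alcohol dehydrogenase made when zinc is low, fell by 1.34, the membrane protein IZH2 by 1.25 and the vacuolar transporter ZRC1 by 1.10 on the log2 scale. Members called were 6 without culture 5, 1 without culture 13, 1 without culture 6 and 2 without culture 14, and ZAP1, the activator of ZRT1, was not called, with a log2 fold change of -0.24.

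General stress and stationary phase genes were higher in petite yeast but differed between the grande libraries as well. The 27 genes summed to 7854 and 1446 CPM in grande and 32628 and 15830 CPM in petite yeast. Of them 9 rose, at a median of 2.20. CTT1, the cytosolic catalase, had 252 and 39.9 CPM in grande and 2237 and 1734 CPM in petite yeast, a log2 fold change of 3.77 ± 0.80. GRE1, a hydrophilin, had 212 and 32.3 CPM in grande and 1843 and 1321 CPM in petite yeast, a log2 fold change of 3.70 ± 0.77. Grande culture 5 was above culture 13 by several fold for both and below both petite libraries. SPG4, a gene of stationary phase, had 6.21 and 2.31 CPM in grande and 269 and 74.1 CPM in petite yeast, a log2 fold change of 5.35 ± 0.98, and SIP18, another hydrophilin, rose by 3.82 ± 1.03. HSP12, a membrane-bound small heat shock protein and a usual marker of this response, was not called, at 1712 and 309 CPM in grande and 11389 and 4111 CPM in petite yeast (log2 fold change 2.94 ± 1.21, adjusted p = 0.126 in edgeR's quasi-likelihood test). The list's median was 3.76 without culture 5, 1.53 without culture 13, 1.77 without culture 6 and 2.58 without culture 14. No call of this list held in all 4 of these fits. Why the grande libraries differed was not tested. The letters AGGGG, bound by Msn2 and Msn4, occurred on either strand in 21 of the 27 windows of this list and in 23.5% of all windows. Among the 9 genes that rose they occurred in 6, a lower share than in the whole list.

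Chaperones showed less of this difference between grande libraries than some genes of carbon metabolism, described below. In grande cultures 5 and 13, the 17 chaperones summed to 5769 and 4432 CPM and the gluconeogenesis and acetate list to 1899 and 486 CPM. Of 17 heat shock chaperones 6 rose. SSA3, a stress-induced Hsp70, had 37.3 and 50.8 CPM in grande and 340.2 and 462 CPM in petite yeast, a log2 fold change of 3.19 ± 0.50, and STI1, a cochaperone of Hsp90, had 122 and 98.6 CPM in grande and 393 and 341 CPM in petite yeast, a log2 fold change of 1.74 ± 0.21. Both held without each library. HSP82, the inducible Hsp90, rose by 2.26 ± 0.43 and its constitutive paralog HSC82 by 1.17 ± 0.24; the pair is nearly identical in sequence, which leaves the division of their reads uncertain. The members called were 5 without culture 5, 2 without culture 13, 3 without culture 6 and 4 without culture 14.

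PDC6, a minor pyruvate decarboxylase, had 33.8 and 11.2 CPM in grande and 848 and 559.6 CPM in petite yeast, a log2 fold change of 4.97 ± 0.63. It was the only one of 21 genes of glycolysis and fermentation to rise, whereas TDH2, HXK2, ENO2 and TPI1 fell. HXK2, the main hexokinase, had 866 and 856 CPM in grande and 247 and 229 CPM in petite yeast, a log2 fold change of -1.86 ± 0.29. SUC2, invertase, had 150.2 and 135 CPM in grande and 48.9 and 49.7 CPM in petite yeast, a log2 fold change of -1.53 ± 0.22. Replicates of HXK2 and SUC2 were close together in both strains, and both calls held without each library. TDH2 and ENO2, glyceraldehyde-3-phosphate dehydrogenase and enolase, fell by 2.25 and 1.63 on the log2 scale, each with a nearly identical paralog, and TPI1 fell by 1.22; none of these 3 held in all 4 fits. SUC2 and HXT5 were the called genes of 17 for hexose transport and sensing, 11.8% beside 10.7% of all genes, which is no result about the list. HXT5, a hexose transporter of slow-growing cells, had 304 and 40.9 CPM in grande and 2711 and 2322 CPM in petite yeast, a log2 fold change of 3.87 ± 0.78. Of 15 genes for gluconeogenesis and acetate use 5 rose, led by PCK1, phosphoenolpyruvate carboxykinase, with 24.1 and 13.8 CPM in grande and 162 and 346 CPM in petite yeast and a log2 fold change of 3.75 ± 0.61. MDH2, MLS1, IDP2 and the activator CAT8 rose by 1.40 to 2.43 on the log2 scale, and the members called were 5 without culture 5, 0 without culture 13, 1 without culture 6 and 3 without culture 14.

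**Figure D3:**
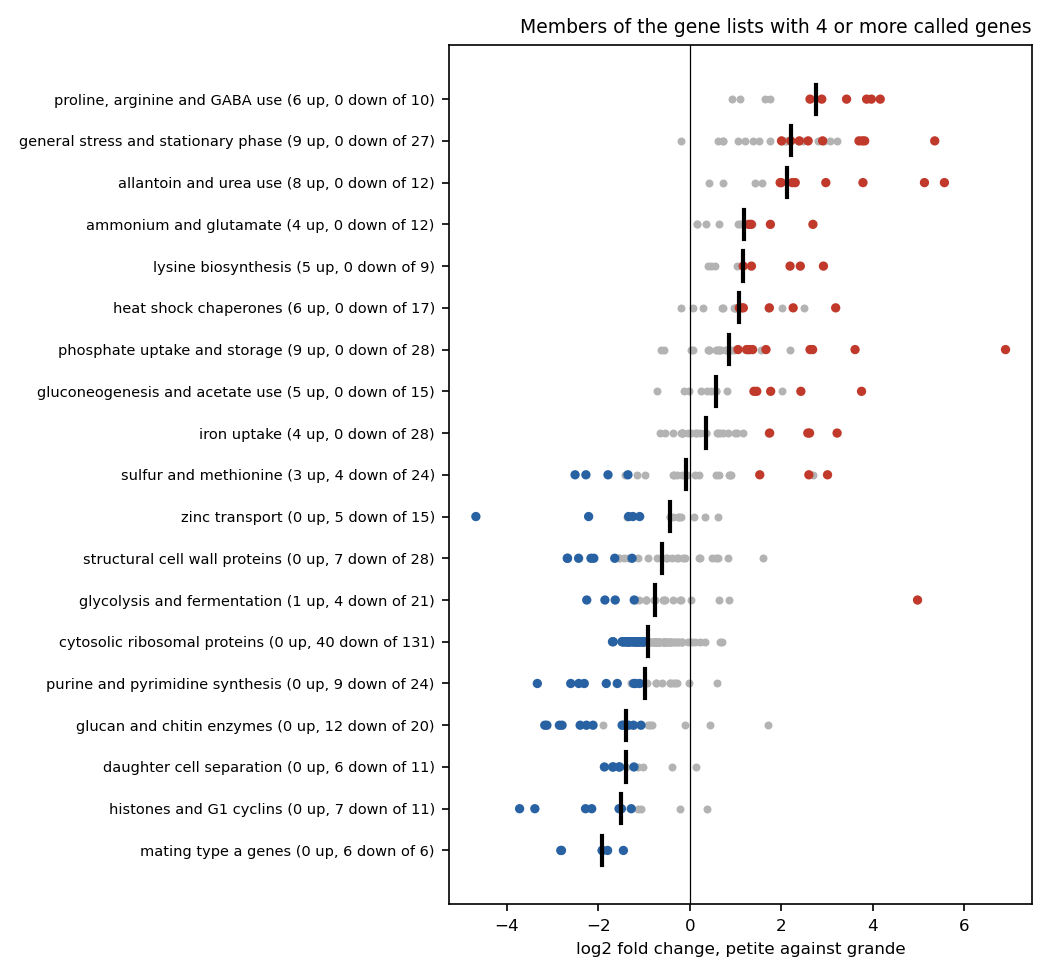
Each row is a list of genes with 4 or more called members, with the log2 fold change, petite against grande, of every tested member on the horizontal axis. Red points were called higher, blue points lower and grey points not called, and the black bar is the median, which ran from -1.91 for the mating type a genes to 2.75 for proline, arginine and GABA use.

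Of 7 targets of the retrograde response 2 fell and 0 rose, at a median of -1.63. DESeq2 called 4 of them and the fit with the block by series 6. CIT2, the peroxisomal citrate synthase, had 537 and 168 CPM in grande and 23.1 and 25.7 CPM in petite yeast, a log2 fold change of -3.85 ± 0.61 with an adjusted p of 0.00395 in edgeR's quasi-likelihood test. DLD3, a cytosolic 2-hydroxyglutarate transhydrogenase, had 409 and 360.3 CPM in grande and 72.5 and 125 CPM in petite yeast, a log2 fold change of -1.96 ± 0.35. The petite libraries agreed closely for CIT2 while grande culture 5 was above culture 13, and both calls held without each library. ACO1, aconitase, was not called, at 967 and 562 CPM in grande and 308 and 187 CPM in petite yeast, nor were IDH1, IDH2 and CIT1, with log2 fold changes of -1.37 ± 0.77, -2.25 ± 0.85 and -0.82 ± 0.71. PYC1, pyruvate carboxylase, pointed the other way without passing (1.78 ± 0.59, adjusted p = 0.0635 in edgeR's quasi-likelihood test). Of 8 regulators of the response, RTG2 among them, 0 were called in edgeR's quasi-likelihood test and 0 by DESeq2, but 3 with library size alone and 1 without culture 6, and their log2 fold changes lay between -0.13 and 0.87; RTG2 had an adjusted p of 0.0307 but changed less than 2-fold.

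The windows before CIT2 and DLD3 are shown for GTCAC, the letters that Rtg1 and Rtg3 bind, which are in capitals with their reverse complement GTGAC. They are chrIII:122429-122728 on the minus strand for CIT2 and chrV:15955-16254 on the plus strand for DLD3, and the former overlaps the annotated reading frame YCR006C.
CIT2: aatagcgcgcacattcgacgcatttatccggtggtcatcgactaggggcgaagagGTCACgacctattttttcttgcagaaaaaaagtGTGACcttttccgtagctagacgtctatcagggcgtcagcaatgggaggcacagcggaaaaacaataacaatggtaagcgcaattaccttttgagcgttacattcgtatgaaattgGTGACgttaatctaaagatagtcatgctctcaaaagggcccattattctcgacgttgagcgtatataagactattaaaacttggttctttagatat
DLD3: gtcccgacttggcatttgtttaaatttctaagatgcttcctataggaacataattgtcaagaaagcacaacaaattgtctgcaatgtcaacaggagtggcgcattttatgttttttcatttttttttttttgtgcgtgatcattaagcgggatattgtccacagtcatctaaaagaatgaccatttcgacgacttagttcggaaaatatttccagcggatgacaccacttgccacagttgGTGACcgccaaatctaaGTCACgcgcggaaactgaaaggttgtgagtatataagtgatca
With 3 and 2 matches these promoters held more than 1 copy each, as did 5.21% of all windows, and 29.4% of all windows held at least 1. Of the 7 retrograde targets 4 (57.1%) held the letters, and CIT2 and DLD3 alone held more than 1 copy. The share with at least 1 was 66.7% in the lysine biosynthesis list and 45.2% in the list of the respiratory chain and ATP synthase.

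Nuclear genes for mitochondrial proteins were called at 5.88% in the citrate cycle list, 4.76% in the respiratory list and 1.85% for mitochondrial ribosomal proteins. Mitochondrial chaperones were called at 28.6% and all genes at 10.7%. The fit with the block by series called 5 of 17 citrate cycle genes and 7 of 42 respiratory genes. Of 17 citrate cycle genes LSC2, a subunit of succinyl-CoA ligase, rose by 1.68 ± 0.46 and 0 fell, and the median of -0.23 became 0.03 when scaled by library size alone, 0.30 without culture 5 and -0.67 without culture 13. Of 42 genes of the respiratory chain and ATP synthase, NDE2, an external NADH dehydrogenase, rose from 29.9 and 9.89 to 105 and 116 CPM and ATP2, a subunit of the ATP synthase, fell from 2874 and 1817 to 1025 and 896 CPM. SHH4, a mitochondrial homolog of a succinate dehydrogenase subunit that was chosen after its values were seen, had 27.2 and 29.7 CPM in grande and 293 and 215 CPM in petite yeast, a log2 fold change of 3.16 ± 0.30. CYC1, cytochrome c, was not called, at 62.9 and 26.7 CPM in grande and 8.48 and 19.7 CPM in petite yeast. Of 54 mitochondrial ribosomal proteins RSM10 rose by 1.90 ± 0.41, and of 7 mitochondrial chaperones HSP78 and MDJ1 rose by 2.43 ± 0.57 and 1.19 ± 0.29. DPI8, a putative mitochondrial protein, had 488 and 263 CPM in grande and 60.4 and 25.4 CPM in petite yeast, a log2 fold change of -3.13 ± 0.72. The 42 respiratory genes summed to 13170.2 and 6416 CPM in grande and 7518 and 5709 CPM in petite yeast, and grande culture 5 was the highest. Their median log2 fold change was -0.37, but 0.24 without culture 5 and -0.84 without culture 13. LSC2, NDE2, ATP2, RSM10, HSP78, MDJ1 and DPI8 each lost their call without at least 1 library, DPI8 only without petite culture 14.

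Genes of the cell wall were among the largest falls. Of 20 enzymes of glucan and chitin 12 fell and 0 rose, at a median of -1.39, and of 28 structural wall proteins 7 fell and 0 rose, at a median of -0.62. SIM1, a wall protein of the SUN family, had 589 and 1205 CPM in grande and 71.7 and 127 CPM in petite yeast, a log2 fold change of -3.17 ± 0.52. SCW10, a glucanase-like wall protein, had 1503 and 2097 CPM in grande and 138 and 275 CPM in petite yeast, a log2 fold change of -3.12 ± 0.42. GAS3, of the family that elongates glucan chains, had 395 and 654 CPM in grande and 59.9 and 91.5 CPM in petite yeast, a log2 fold change of -2.79 ± 0.47. In all 3 genes the higher series was higher in both strains and the groups were well apart. UTR2, which links chitin to glucan, fell by 2.85 on the log2 scale, with a call lost without culture 13 or 6. Among structural proteins, CIS3 had 1913 and 2757 CPM in grande and 256 and 476 CPM in petite yeast, a log2 fold change of -2.67 ± 0.45, and TOS1 fell by 2.43, TOS6 by 2.68 and TIR2 by 2.16 on the log2 scale. Members called were 14 without culture 5, 5 without culture 13, 5 without culture 6 and 8 without culture 14 for the enzymes and 6 without culture 5, 2 without culture 13, 2 without culture 6 and 4 without culture 14 for the structural proteins. SRL1, a mannoprotein outside these lists, had 422 and 877 CPM in grande and 45.8 and 85.8 CPM in petite yeast, a log2 fold change of -3.30 ± 0.65, and lost its call without culture 13 or 6.

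Genes of daughter cell separation, made in daughter cells at the end of division, fell in 6 of 11 cases, at a median of -1.40. CTS1, chitinase, had 3119 and 5143 CPM in grande and 1382 and 1442 CPM in petite yeast, a log2 fold change of -1.55 ± 0.42, and the daughter-specific DSE2, DSE4 and SCW11 fell by 1.87, 1.69 and 1.67 on the log2 scale. Members called were 5 without culture 5, 0 without culture 13, 0 without culture 6 and 1 without culture 14, so no call of this list held in all 4 fits. Histone genes and G1 cyclins, which are transcribed in limited parts of the cell cycle, fell in 7 of 11 cases. HTB2, histone H2B, had 1173 and 1436 CPM in grande and 86.1 and 112 CPM in petite yeast, a log2 fold change of -3.72 ± 0.51 with an adjusted p of 0.00241 in edgeR's quasi-likelihood test. HTA2, histone H2A, had 346 and 582 CPM in grande and 26.2 and 62.3 CPM in petite yeast, a log2 fold change of -3.39 ± 0.42. Their paralogs HTB1 and HTA1 were not called, with log2 fold changes of -1.07 ± 0.39 and -1.13 ± 0.39, and reads of such near-identical pairs may have been divided or lost in counting. HHF2, histone H4, fell by 2.28 and CLN2, a G1 cyclin, by 2.14 on the log2 scale. TOS4, a transcription factor of G1 and S phase, had 20.96 and 45.8 CPM in grande and 1.80 and 6.42 CPM in petite yeast, a log2 fold change of -3.00 ± 0.50. HTB2, HTA2, HHF2 and TOS4 held without each library, and in these fits the members called were 7 without culture 5, 3 without culture 13, 3 without culture 6 and 4 without culture 14. Each library is RNA of a whole culture, so fewer cells in a phase of the cycle and less of these messages per cell cannot be told apart.

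All 6 genes specific to mating type a fell, and 0 of 3 alpha-specific genes tested were called in edgeR's quasi-likelihood test, all with an adjusted p above 0.05. BAR1, the protease that degrades alpha-factor, had 165 and 308 CPM in grande and 19.03 and 48.5 CPM in petite yeast, a log2 fold change of -2.81 ± 0.49. STE2, the alpha-factor receptor, had 1025 and 2117 CPM in grande and 234 and 599.8 CPM in petite yeast, a log2 fold change of -1.91 ± 0.51. MFA2 fell by 2.82, MFA1 by 1.80, the agglutinin AGA2 by 1.92 and the a-factor exporter STE6 by 1.45 on the log2 scale. Members called were 5 without culture 5, 2 without culture 13, 1 without culture 6 and 4 without culture 14, and BAR1 alone held in all 4 fits. Of 15 pheromone response genes tested, FAR1, which arrests the cycle in G1, fell by 1.44, at a list median of -0.76.

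The windows before MFA2 and BAR1 are shown for TGAAACA, the letters bound by Ste12, in capitals; no reverse complement occurs in these 2. They are chrXIV:352014-352313 on the plus strand for MFA2, which overlaps the annotated reading frame YNL146W, and chrIX:321942-322241 on the plus strand for BAR1.
MFA2: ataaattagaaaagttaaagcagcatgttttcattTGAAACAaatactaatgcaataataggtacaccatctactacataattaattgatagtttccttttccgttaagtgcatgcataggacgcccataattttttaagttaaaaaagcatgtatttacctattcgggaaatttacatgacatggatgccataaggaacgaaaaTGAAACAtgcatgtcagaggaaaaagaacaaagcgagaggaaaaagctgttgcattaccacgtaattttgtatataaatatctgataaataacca
BAR1: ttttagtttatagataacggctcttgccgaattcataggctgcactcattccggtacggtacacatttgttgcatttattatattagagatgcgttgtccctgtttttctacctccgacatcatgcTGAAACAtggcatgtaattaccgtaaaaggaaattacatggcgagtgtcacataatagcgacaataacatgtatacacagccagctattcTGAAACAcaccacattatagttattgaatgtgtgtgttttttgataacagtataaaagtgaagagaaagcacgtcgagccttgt
The letters were found on either strand in all 6 windows of the a-specific list, at least 2 copies in 4 of them, and in 7.64% of all windows.

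The next 5 genes, of inositol uptake and phospholipid synthesis, were picked after their values were seen, because they fell, and say nothing of other genes of these pathways. ITR1, the inositol transporter, had 2803 and 5457 CPM in grande and 789 and 402 CPM in petite yeast, a log2 fold change of -2.79 ± 0.44. PSD1, the phosphatidylserine decarboxylase of mitochondria, had 272 and 416 CPM in grande and 60.7 and 71.05 CPM in petite yeast, a log2 fold change of -2.38 ± 0.29. CDS1, which makes CDP-diacylglycerol, fell by 2.38 and the methyltransferase OPI3 by 2.05 on the log2 scale. ITR1, PSD1 and CDS1 held without each library, and OPI3 lost its call without culture 13 or 14. INO1, inositol-3-phosphate synthase, had 194 and 898 CPM in grande and 194 and 59.4 CPM in petite yeast, so that grande culture 5 and petite culture 6 were nearly level, and its call, at -2.11 ± 0.65, was lost without culture 13 or 14.

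**Figure D4:**
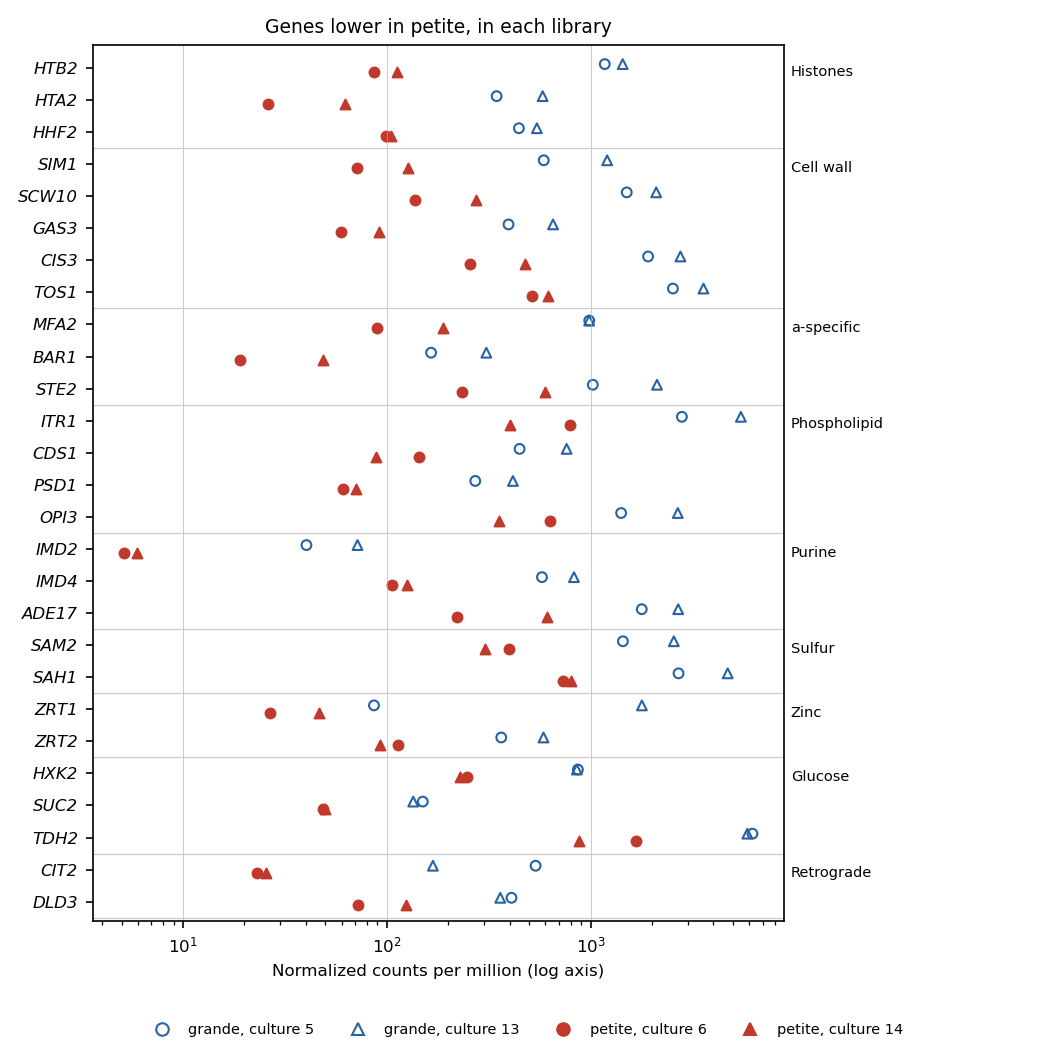
Each symbol is the level of 1 gene in 1 library, in normalized CPM on a log axis, for genes called lower in petite yeast. Open blue symbols are grande and filled red symbols petite yeast, circles the lower and triangles the higher series; the groups are apart for each gene shown, while ZRT1 differs about as much between the grande libraries (86.5 and 1784 CPM) as between the strains.

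Most ribosomal protein genes were lower in petite yeast. Of 131 cytosolic ribosomal protein genes tested 125 were lower and 6 higher, with 40 called lower and 0 called higher. Their median was -0.92, or -0.66 with 18 called when scaled by library size alone. Ribosomal protein genes made up 12.6% and 13.2% of the counts in grande and 7.87% and 7.58% in petite yeast. RPL30 had 2441 and 3089 CPM in grande and 942 and 1058 CPM in petite yeast, a log2 fold change of -1.47 ± 0.28, and RPS22B, which holds the small nucleolar RNA gene SNR44, fell by 1.69 on the log2 scale. Most of these genes come in near-identical pairs, so the value of a single copy is uncertain. Members called were 50 without culture 5, 0 without culture 13, 3 without culture 6 and 11 without culture 14, so no call held in all 4 fits. Of 42 genes of ribosome biogenesis NOP1 and GAR1, proteins of small nucleolar particles, fell by 1.52 and 1.18 on the log2 scale, at a list median of -0.34. The called share of that list was 4.76%, beside 5.09% of all genes called lower.

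Purine and pyrimidine synthesis fell in 9 of 24 genes and rose in 0, with 5 called when scaled by library size alone, at a median of -0.98. IMD2, an IMP dehydrogenase of GTP synthesis, had 40.4 and 71.9 CPM in grande and 5.14 and 5.94 CPM in petite yeast, a log2 fold change of -3.33 ± 0.54. IMD4, its paralog, had 577 and 828 CPM in grande and 106 and 125 CPM in petite yeast, a log2 fold change of -2.60 ± 0.39; the IMD genes share much of their sequence and IMD4 holds the gene SNR54, so their separate values are uncertain. ADE17, which makes IMP, had 1781 and 2689 CPM in grande and 222 and 609 CPM in petite yeast, a log2 fold change of -2.43 ± 0.61, and SHM2, which supplies its 1-carbon units, fell by 2.31 on the log2 scale. Members called were 12 without culture 5, 3 without culture 13, 4 without culture 6 and 10 without culture 14, with IMD2 and IMD4 among those that held in all 4 fits and ADE17 and SHM2 not.

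The difference between strains was set against that in YPD to see which changes depended on the medium. In YPD 0 genes were called by edgeR's quasi-likelihood test, 84 changed 2-fold at p under 0.05 before adjustment, and DESeq2 called 6. The 326 genes that rose in YM had a median log2 fold change of 1.60 there and 0.09 in YPD, and the 298 that fell had -1.39 and -0.15. These genes were selected by their change in YM, which by itself enlarges the YM medians. The gap between these medians is therefore no measure of dependence on the medium. The test of the difference itself, YM less YPD, called 31 genes (0.529%), of which 30 were called in YM too. DAL4 had 9.21 and 6.30 CPM in grande and 3.70 and 5.46 CPM in petite yeast in YPD, a log2 fold change of -0.70, and its difference was 6.26 ± 0.87 (adjusted p = 0.0159 in edgeR's quasi-likelihood test). PUT1 had 11.98 and 7.09 CPM in grande and 9.86 and 6.18 CPM in petite yeast, and its difference of 4.41 ± 0.57 had an adjusted p of 0.00995 in that test. PHO89 had 23.03 and 103 CPM in grande and 124 and 222 CPM in petite yeast, a log2 fold change of 1.44, and a difference of 5.46 ± 1.03. DIP5 and PTR2 were both higher in YPD than in YM in grande yeast, with DIP5 at 218 and 107 CPM in grande and 271 and 124 CPM in petite yeast and PTR2 at 179 and 132 CPM in grande and 197 and 122 CPM in petite yeast, and their differences were 4.70 ± 0.85 and 4.21 ± 0.81. The differences of DAL5, DUR3 and ATG1 were 4.99 ± 0.76, 3.80 ± 0.69 and 3.55 ± 0.61.

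Among the falls, HTB2 had 952 and 969 CPM in grande and 877 and 757 CPM in petite yeast in YPD and a difference of -3.49 ± 0.67, so its grande level was alike in both media and its petite level was low in YM. HTA2, HHF2, HXK2, PSD1 and SUC2 had differences of -3.16 ± 0.56, -2.34 ± 0.42, -2.17 ± 0.40, -2.12 ± 0.39 and -1.60 ± 0.30 in the same test. CIT2 and DLD3 pointed down in YPD as well, at -1.43 and -1.30, without passing there, and their differences of -2.42 ± 0.80 and -0.66 ± 0.48 did not pass. The number of genes with a difference was small beside the 624 in this fit, and the test of a difference carries the error of 8 libraries. This number depended on the fit, at 197 with DESeq2, 131 with the block by series and 15 with RLE in place of TMM factors. It was 14 without culture 5, 4 without culture 13, 25 without culture 6 and 4 without culture 14.

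**Figure D5:**
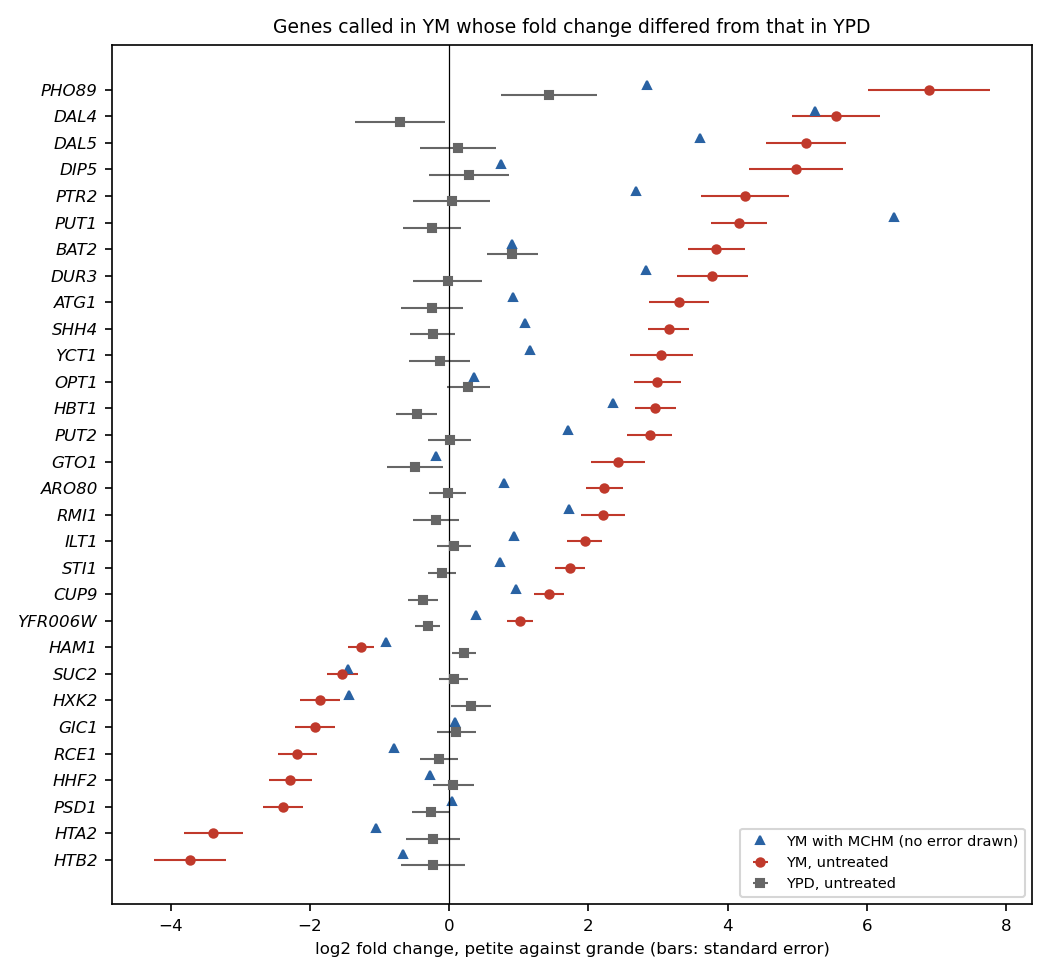
Each row is 1 of the 30 genes called in YM whose log2 fold change, petite against grande, differed between YM and YPD. Red circles are YM and grey squares YPD, both without MCHM and with standard errors, and blue triangles are YM with MCHM; the YPD values lie between -0.70 for DAL4 and 1.44 for PHO89.

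With MCHM in YM, 218 genes (3.72%) were called between petite and grande yeast, and 134 of them were among the 624. That is 21.5% of the 624 and 61.5% of the 218, and all 134 had the same direction; treated and untreated libraries came from the same divided cultures. The genes that rose without MCHM had a median log2 fold change of 0.78 with it, and those that fell -0.89. Selection by the change without MCHM by itself makes these medians smaller than those without it. DAL4 had 17.2 and 18.2 CPM in grande and 1076 and 289 CPM in petite yeast with MCHM, PUT1 had 8.60 and 13.2 CPM in grande and 1136 and 705 CPM in petite yeast, and CIT2 had 271 and 168 CPM in grande and 29.8 and 19.5 CPM in petite yeast, with log2 fold changes of 5.26, 6.39 and -3.16. HTB2 had 162 and 166 CPM in grande and 154 and 53.2 CPM in petite yeast with MCHM, where its grande level was low as well. The difference, untreated less with MCHM, was tested without pairing the parts of a divided culture. DESeq2 called 65 genes and the fit with the block by series 27. In edgeR's quasi-likelihood test 348 genes changed 2-fold at p under 0.05 before adjustment, and 1 gene (0.0171%) was called. That gene was AGP1, a broad amino acid permease, which was not called without MCHM, at 42.7 and 63.6 CPM in grande and 81.2 and 107 CPM in petite yeast, and had 1621 and 653 CPM in grande and 61.8 and 68.2 CPM in petite yeast with it. Its difference of 4.95 ± 0.67 had an adjusted p of 0.0461 in that test, and the call was lost without culture 5, 13 or 14.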

How the data were processed

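RNA of 16 yeast libraries, 2 for each combination of strain, medium and MCHM, had been sequenced as unstranded paired ends. The authors deposited 1 table of gene counts, made with Rsubread and not normalized, and the submitters' processing notes name CASAVA 1.7, TopHat2 2.0.12, DESeq2 1.8.1 and the builds R64 and sacCer3. A deposited table of the authors' own DESeq2 comparisons was not used. Columns were matched to groups by strain, medium and MCHM in their names, and 0 columns were left out. The members of each group are called replicated cultures in the labels.

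Of 6717 identifiers, 5856 passed the expression filter of edgeR 4.0.16 (R 4.3.3; minimum count 10, minimum total 15) and were fitted with TMM scaling and 1 term for each of 8 groups. Contrasts were tested by quasi-likelihood F-tests with Benjamini-Hochberg adjustment, a prior count of 0.125 and thresholds of 0.05 and 2-fold. With 2 libraries per group, an exact permutation test cannot go below p = 0.333 and was not used. The 4 libraries held 2854748 to 4012646 counts. The code was tested on simulated data. Alternatives were no filter, RLE factors, library size alone, DESeq2 1.42.0, only the groups compared, a block by series of culture numbers and each library left out.

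The comparison and the 43 gene lists, with 888 genes of which 872 were tested, were chosen with earlier results of these data known. The text names the 10 largest called changes each way at a mean of at least 50 counts, up to 4 called genes of each list, all of them where 5 or fewer were called, and genes of the label checks. Further genes, among them those of phospholipid synthesis, PTR2, OPT1, ATG1, ASN1, SHH4, PUT2, CAR2, DAL1, DAL2, DCG1, STR2, SAM1, MET3, ZAP1, HTA1, HTB1, PHM6, PHO81, DDP1, GDE1 and KCS1, were chosen after their values were seen. Symbols and the 300-base windows came from the RefSeq R64 assembly, in which 6025 identifiers had a symbol; its gene models start at the start codon.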

Additional observations from a re-analysis of the deposited data

Results flagged for a closer look

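The difference between petite and grande yeast differed between YM and YPD for 31 genes by the test of that difference, and in YM between untreated and MCHM-treated cultures for 1 gene. Among the 30 of those 31 genes also called in YM, the differences of log2 fold changes, YM less YPD, that were largest in size were 6.26 for DAL4, 5.46 for PHO89, 4.99 for DAL5, 4.70 for DIP5, 4.41 for PUT1, 4.21 for PTR2, 3.80 for DUR3 and 3.55 for ATG1. AGP1 differed by 4.95, untreated less with MCHM. Each group holds 2 libraries, too few to look for a library that stands apart within a group.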

How the results depend on the processing

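The 624 calls became 636 without a filter, 632 with RLE factors, 695 with library size alone, 767 with DESeq2 and 8 with only the groups compared, where 2 residual degrees of freedom estimate the spread. They shared 571, 610, 500, 614 and 8 genes with the 624. Leaving out 1 library gave 98 to 647 calls. The 31 differences between media became 15 with RLE factors, 197 with DESeq2 and 3 with only the groups compared, and 4 to 25 with 1 library left out. The 1 difference with MCHM became 2 with library size alone, 65 with DESeq2 and 0 with only the groups compared, while 299 genes there changed 2-fold at p under 0.05 before adjustment, and 0 to 3 with 1 library left out, the 0 standing without culture 5, 13 or 14 beside 413, 339 and 382 genes on that unadjusted measure. Of the 195 listed genes called, 6 were called with only the groups compared and 41 to 186 with 1 library left out. No called gene named in the text changed direction in any of these settings. A fit with the replicate block by series of culture numbers gave 869 calls, 617 of them shared, 131 differences between media and 27 with MCHM. The deviations of the libraries of a series from their group means correlated at 0.0262 to 0.736 over 28 pairs of groups, with a median of 0.453 and 27 of the 28 above 0.1, and at 0.574 for petite and grande yeast in YM. The 1 pair below 0.1 was petite and grande yeast with MCHM in YM, not the pair compared here. The fit without the block was kept because the labels do not say what the cultures of a series share. The numbers called depend on this choice. With the block, 6 of 7 retrograde targets, 5 of 17 citrate cycle genes and 7 of 42 respiratory genes were called, against 2, 1 and 2. With library size alone, 14 phosphate genes, 18 ribosomal protein genes, 5 purine and pyrimidine genes and 3 zinc genes were called, against 9, 40, 9 and 5, and with DESeq2 14 stress genes against 9. The causes of these changes were not tested. Genes near 1 CPM rest on few counts at these depths.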

Other observations

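Genes of peroxisomal fatty acid oxidation, which yeast use on oleate, rose in 3 of 21 cases, 14.3% beside 5.57% of all genes. Most other lists here were near or below the 10.7% of all genes called. Shares were 11.8% for trehalose and glycogen, 9.09% for antioxidants, 8.33% for ergosterol and 6.06% for the proteasome. They were 6.25% for vitamin B6 and thiamine, 5.56% for haem and hypoxic genes and 25.0% for drug resistance. Counts near the share of all genes are no result about a list. POX1, acyl-CoA oxidase, had 10.5 and 6.92 CPM in grande and 26.7 and 25.2 CPM in petite yeast, a log2 fold change of 1.58 ± 0.36. POT1, the thiolase of the same pathway, rose by 2.02 ± 0.59 and the carnitine acetyltransferase CAT2 by 1.26 ± 0.36, and none of the 3 kept its call without culture 13. Of 33 proteasome genes all 33 had a log2 fold change above 0, at a list median of 0.50. Those called were RPN5 and RPN8, subunits of the lid, which rose by 1.41 ± 0.26 and 1.35 ± 0.31. Of 17 genes for trehalose and glycogen, NTH2 and ATH1, which break down trehalose, rose by 1.58 ± 0.43 and 1.25 ± 0.32. Of 22 antioxidant genes the peroxiredoxin TSA2 rose by 2.30 ± 0.60, beside CTT1.

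Of 12 genes of pleiotropic drug resistance, the activator PDR1 rose by 1.11 ± 0.21 and the transporter YOR1 by 1.22 ± 0.30, and IPT1, which makes a sphingolipid, fell from 604 and 363 to 279.7 and 163 CPM. PDR5, the main multidrug exporter, was not called, at 867 and 895 CPM in grande and 627 and 1060.3 CPM in petite yeast, and had 699 and 1210.1 CPM in grande and 3043 and 8042 CPM in petite yeast in YPD. Its difference between media was -2.60 ± 0.62, with an adjusted p of 0.0902 in edgeR's quasi-likelihood test. Of 16 genes for vitamin B6 and thiamine SNO1 rose by 1.62 ± 0.49. Of 18 genes for haem synthesis and hypoxic growth HEM12, uroporphyrinogen decarboxylase, fell from 117 and 128 to 61.4 and 44.9 CPM. Of 24 ergosterol genes MVD1 and ERG4 fell, MVD1 from 212 and 257 to 112 and 116 CPM. The medians of these 4 lists were -0.02, -0.22, -0.19 and -0.18, and with library size alone they were 0.24, 0.03, 0.07 and 0.08. The median of hexose transport and sensing was -0.20 and became 0.06 in the same way, but 1.04 without culture 5 and -0.90 without culture 13. Medians of drug resistance genes also took both signs with 1 library left out, from -0.25 without culture 14 to 0.27 without culture 6.

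Apart from HXT5 and SUC2 of the hexose list, none of the called genes of these small lists kept its call in all 4 fits with 1 library left out. Without cultures 5, 13, 6 and 14 in turn, the members called were 1, 0, 1 and 0 for fatty acid oxidation, 3, 0, 1 and 4 for the proteasome, 2, 0, 0 and 0 for trehalose and glycogen and 5, 0, 1 and 1 for antioxidant enzymes. They were 0, 0, 2 and 1 for drug resistance, 0, 0, 1 and 1 for vitamin B6 and thiamine, 1, 0, 1 and 0 for haem and hypoxic genes and 2, 0, 0 and 0 for ergosterol.

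YOL163W, an uncharacterized reading frame chosen after its values were seen, differed between media without a call in YM. It had 4.27 and 6.26 CPM in grande and 3.34 and 4.04 CPM in petite yeast in YM, and its difference of log2 fold changes, YM less YPD, was -7.41 ± 1.35. Both grande libraries in YPD held 0 counts of it, and the petite libraries there 2.05 and 5.70 CPM, so the fitted difference depends on the prior count and is no bound.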
